A study of Mus musculus with 41 samples.

Results

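The transcripts of 3 inflammatory cytokines, *Il1b*, *Tnfa* and *Il6*, were followed in the skin of every mouse of the series, 41 mice in 6 groups. They were 3 of the 54 mouse target genes measured by TaqMan quantitative PCR on a Fluidigm dynamic array, and were taken by name, with the only TNF row of the Ct table (TNF-alfa) read as *Tnfa*. All mice were female and of the NSG strain, which has no mature T, B and NK cells but keeps neutrophils and macrophages. Their age was not given. Skin close to the operated site was taken at 1 or 6 weeks from mice implanted with the P nano-mesh, an electrospun degradable polymer mesh (P, n = 6 at 1 week and n = 8 at 6 weeks), from mice implanted with the same mesh carrying human endometrial mesenchymal stem/stromal cells (P+eMSC, n = 7 and n = 7), and from sham-operated mice without a mesh (sham, n = 7 and n = 6). Each sample was a different mouse, identified by the animal number in its title. The assays were designed for mouse genes, and whether they also read RNA of the human cells was not tested.

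IL-1β and TNF-α are released early after tissue injury, mainly by macrophages, neutrophils and mast cells. Through their receptors they activate NF-κB in fibroblasts, endothelium and epithelium, and so switch on chemokines, adhesion molecules and IL-6. IL-6 is made by stromal cells as well as by leucocytes, signals through STAT3, and takes part in both the acute response and its resolution. Around an implant these cytokines are hallmarks of the acute phase of the foreign body reaction. RNA was measured in whole tissue, where fewer cells of a type and less RNA per cell cannot be told apart.

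The level of a gene in a mouse is given as the Ct of 18S rRNA minus the Ct of the gene. It is on a log2 scale, so that it is a negative number, a less negative value means more RNA, and a step of 1 is a doubling if the PCR is fully efficient. Each assay has its own efficiency, so levels were compared between mice and not between the 3 genes. The 18S Ct itself lay between 6.20 and 7.79 in the 41 mice. A Ct was called for *Il1b* in 39 mice and for *Tnfa* and *Il6* in 40 each. Mouse 52 (P, 6 weeks) had none for all 3 cytokines and for 31 of the 54 genes, and mouse 78 (P+eMSC, 1 week) had none for *Il1b* and for 6 genes in all. These values were left out of the tests, and both mice stayed in the tests of the genes in which they had a Ct. Mouse 2356 was labelled P at 6 weeks, but for 49 of the 54 genes its deposited fold changes lay within 0.01 (log2) of those calculated with the 1 week sham controls, against 1 gene with the 6 week sham controls. It was kept as labelled. The mouse carried the highest *Il1b* and *Il6* of its group.

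Because the 3 genes were compared for how they moved together, the 250 bases before the start of each are shown, from RefSeq (GRCm38.p6) and on the strand of the gene. The window of *Il1b* is chr2:129371140-129371389 (minus strand), that of *Tnfa* (*Tnf*) chr17:35202008-35202257 (minus strand) and that of *Il6* chr5:30012864-30013113 (plus strand). Capitals mark matches, on either strand, to an NF-κB consensus of 10 letters, to an AP-1 motif (TGANTCA), to a C/EBP motif (TTNNGNAA) or to a TATA motif (TATAAA).
Il1b: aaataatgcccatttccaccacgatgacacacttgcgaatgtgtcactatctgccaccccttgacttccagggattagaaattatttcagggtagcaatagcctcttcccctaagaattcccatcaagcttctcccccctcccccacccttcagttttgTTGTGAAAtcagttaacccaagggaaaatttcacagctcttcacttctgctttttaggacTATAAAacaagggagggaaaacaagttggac
Tnfa: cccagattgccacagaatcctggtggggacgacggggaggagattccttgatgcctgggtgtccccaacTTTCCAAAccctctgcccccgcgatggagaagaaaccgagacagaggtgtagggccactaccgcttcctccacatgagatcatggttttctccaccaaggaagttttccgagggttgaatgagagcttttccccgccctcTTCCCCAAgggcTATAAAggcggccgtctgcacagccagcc
Il6: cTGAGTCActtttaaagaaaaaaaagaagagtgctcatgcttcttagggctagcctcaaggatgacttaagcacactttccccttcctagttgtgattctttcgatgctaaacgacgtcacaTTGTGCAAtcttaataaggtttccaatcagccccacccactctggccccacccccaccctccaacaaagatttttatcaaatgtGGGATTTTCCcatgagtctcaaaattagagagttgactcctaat
The C/EBP motif was matched in the windows of all 3 genes, at 1 position in *Il1b*, 2 in *Tnfa* and 1 in *Il6*. The TATA motif was matched just before the start of *Il1b* and of *Tnfa*, and the NF-κB consensus and the AP-1 motif only in the *Il6* window. Of 32851 mouse windows of the same length, 36.8% held the C/EBP motif, 12.4% the TATA motif, 6.75% the AP-1 motif and 3.9% the NF-κB consensus. These are descriptions of the letters in one window.

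The range within a group was wide for all 3 cytokines, and the groups overlapped in all of the 27 comparisons made. *Il1b*, the gene of the inflammasome-processed cytokine IL-1β, ran from -18.79 to -8.75 over all mice, a range of 10.04, which is 10.04 PCR cycles. In sham mice it lay between -17.11 and -8.83 at 1 week (median -15.77) and between -18.79 and -12.60 at 6 weeks (median -16.25). In P mice it lay between -16.05 and -9.10 at 1 week (median -13.22) and between -16.21 and -9.84 at 6 weeks (median -14.68). In P+eMSC mice it lay between -16.55 and -9.36 at 1 week (median -14.92) and between -18.41 and -8.75 at 6 weeks (median -14.95). P at 1 week had the highest median and both sham groups the lowest, and a mouse above -10 was found in P and P+eMSC at both weeks and in sham at 1 week.

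*Tnfa*, the gene of the cytokine TNF-α, ran from -17.74 to -9.69. It lay between -15.35 and -10.58 in sham at 1 week (median -13.29) and between -16.45 and -10.33 in sham at 6 weeks (median -14.06). It lay between -17.74 and -9.88 in P at 1 week (median -11.48) and between -15.77 and -10.58 in P at 6 weeks (median -13.85). In P+eMSC it lay between -15.68 and -9.98 at 1 week (median -13.39) and between -14.69 and -9.69 at 6 weeks (median -12.49). The P group at 1 week held the lowest *Tnfa* value of all, in mouse 2355, beside the highest group median.

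*Il6*, which encodes the cytokine that acts through gp130, ran from -18.91 to -10.00, and both ends lay in sham mice at 1 week. That group had a median of -16.80, and its 2 highest mice, 2269 at -10.00 and 400 at -12.82, stood above its other 5 mice, all at or below -16.26. Sham mice at 6 weeks lay between -16.97 and -14.90 (median -15.45), the narrowest range of the 18 (2.07). P mice lay between -17.08 and -12.68 at 1 week (median -15.72) and between -18.29 and -13.81 at 6 weeks (median -15.95). P+eMSC mice lay between -17.45 and -14.41 at 1 week (median -16.63) and between -17.54 and -13.77 at 6 weeks (median -15.69). The 6 group medians of *Il6* spanned only 1.35, against 2.59 for *Tnfa* and 3.03 for *Il1b*.

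**Figure D1:**
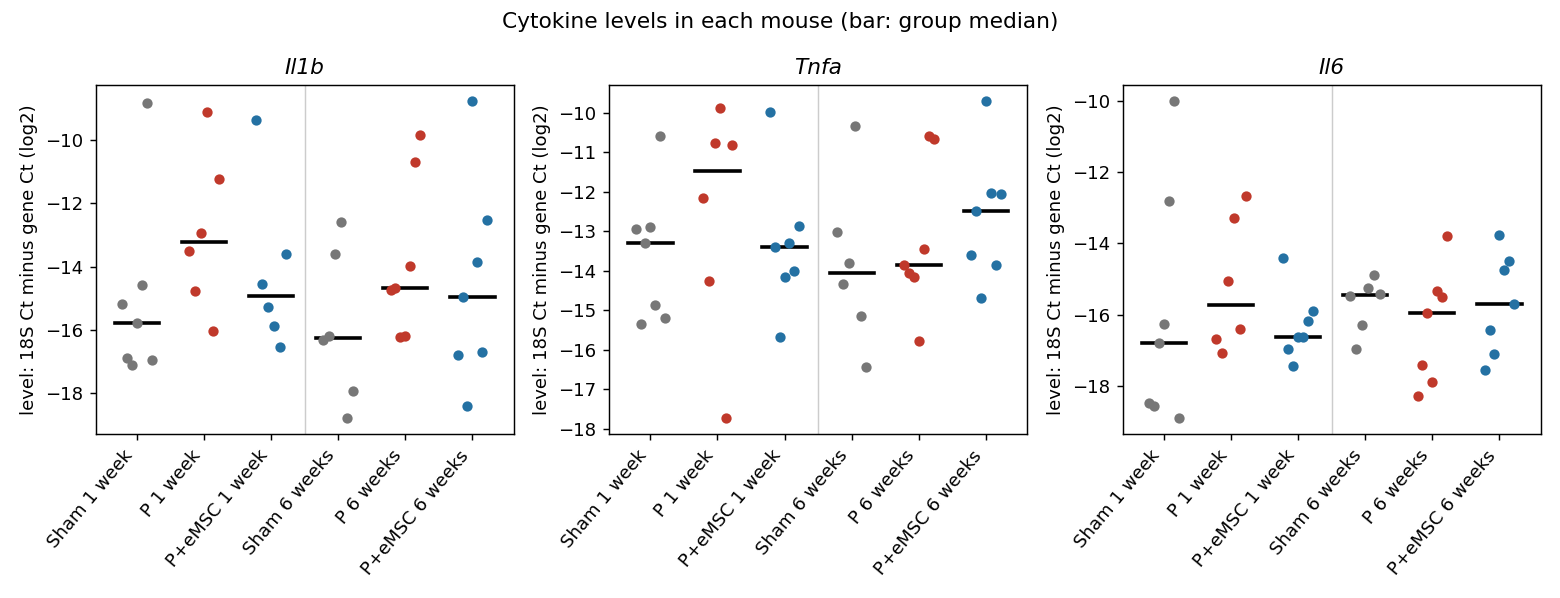
Level of *Il1b*, *Tnfa* and *Il6* in each mouse (18S Ct minus gene Ct, log2 scale, 1 point per mouse, bar at the group median; sham grey, P red, P+eMSC blue; 1 week left and 6 weeks right of the line). The groups overlap in every panel, and single mice such as the sham mouse at -8.83 for *Il1b* stand far above their group.

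Ordered by group median, *Il1b* ran from P at 1 week through P at 6 weeks, P+eMSC at 1 week, P+eMSC at 6 weeks and sham at 1 week down to sham at 6 weeks. For *Tnfa* the order was P at 1 week, P+eMSC at 6 weeks, sham at 1 week, P+eMSC at 1 week, P at 6 weeks and sham at 6 weeks. For *Il6* it was sham at 6 weeks, P+eMSC at 6 weeks, P at 1 week, P at 6 weeks, P+eMSC at 1 week and sham at 1 week. In all 15 pairs of neighbouring groups the difference of the means was smaller than the larger of both SDs. Neighbours were set by sorting the same values, so this describes the order and cannot test whether groups differ. The differences between groups held 11.8% of the variance of *Il1b*, 5.54% of that of *Tnfa* and 4.63% of that of *Il6*, against a median of 10.9% over the 54 genes. The pooled SD within groups was 2.73 for *Il1b*, 2.02 for *Tnfa* and 1.89 for *Il6*, and over the 54 genes its median was 2.01, or 1.78 without mouse 52.

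The first question was whether a mesh altered the cytokines relative to a sham operation. At 1 week the point estimates of all 3 were higher in P than in sham, but none passed the exact Mann-Whitney U test (called at a p of 0.0513 or less, the study's threshold). The shift, a Hodges-Lehmann estimate with its exact 95% interval, was 2.26 for *Il1b* (-0.86 to 5.73, exact p = 0.138), 1.62 for *Tnfa* (-2.53 to 4.40, exact p = 0.366) and 1.61 for *Il6* (-3.57 to 4.12, exact p = 0.445). None of the 3 cytokines was called, where 5.56% of the 54 genes were, all 3 of them lower in P. Whether *Il1b* was called depended on 1 sham mouse. Without mouse 2269 the shift was 3.09 (0.85 to 5.89, exact p = 0.0260, adjusted p = 0.501 over the 54 genes), again with 5.56% of genes called. Compared only between mice of one series of animal numbers, either below 1000 or above 2000, it was 1.37 (exact p = 0.279).

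At 6 weeks *Il1b* was at -13.76 ± 2.54 (SD, n = 7) in P and at -15.91 ± 2.40 (SD, n = 6) in sham. The shift of 2.07 had an interval of -1.38 to 5.63 and an exact p of 0.181. Between mice of one number series, with both series pooled, it was 0.12 (exact p = 0.203). Among mice numbered above 2000, P mice lay between -13.98 and -9.84 and sham mice at -18.79 and -17.92. Among mice numbered below 1000, P mice lay between -16.21 and -14.68, within the range of the sham mice (-16.31 to -12.60). A difference between the series was not tested. *Tnfa* shifted by 0.42 (-1.98 to 3.21, exact p = 0.731) and *Il6* by -0.50 (-2.51 to 1.44, exact p = 0.366). None of the 3 was called in this comparison, in which 25.9% of the 54 genes were called, all 14 lower in P, and the median shift of all genes was -0.83. Only *Il1b* and *Tnfa* had point estimates above 0, against 11 of the 54 genes. Mouse 52, which had no cytokine value, was still part of P for the genes in which it had a Ct. The share of genes called and the median shift without this mouse were not determined.

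The reference changed the call of *Il1b* in P against sham. Since most genes of a mouse moved together against 18S, the levels were also taken against the median Ct of the 23 genes with a Ct in all 41 mice, none of them a cytokine of the 3. On this scale *Il1b* was higher in P than in sham at 1 week by 2.31 (0.83 to 5.57, exact p = 0.0221, adjusted p = 0.443) and at 6 weeks by 3.41 (0.57 to 6.29, exact p = 0.0350, adjusted p = 0.315). The P mice at 6 weeks included mouse 2356, whose *Il1b* on this scale was the highest of that group (-2.13). The 6 week call was not repeated without this mouse. At 1 week 5.56% of the 54 genes were called on this scale and at 6 weeks 13%, all of them higher in P. The change of reference moved the median shift of all genes from -0.10 to 0.36 at 1 week and from -0.83 to 0.26 at 6 weeks. *Tnfa* was 1.65 higher at 1 week and 1.76 higher at 6 weeks, both with an exact p of 0.0734, and *Il6* differed by 1.33 (exact p = 0.181) and 0.49 (exact p = 0.366). None of these passed an adjusted p below 0.05.

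For P+eMSC against sham, none of the 3 cytokines was called at either week, and neither was any other gene (0% of 54 at 1 week and 0% at 6 weeks, also at an unadjusted p below 0.05). At 1 week the shift was 0.99 for *Il1b* (-1.36 to 3.50), 0.03 for *Tnfa* (-2.29 to 2.06) and 0.62 for *Il6* (-4.14 to 2.39). At 6 weeks it was 1.17 for *Il1b* (-2.35 to 4.93), 1.29 for *Tnfa* (-1.68 to 3.96) and 0.02 for *Il6* (-1.68 to 1.65). The exact p-values of these 6 comparisons lay between 0.234 and 1.

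The second question was whether the cells changed the response to the mesh. At 1 week all 3 point estimates were lower in P+eMSC than in P, with shifts of -1.36 for *Il1b* (-4.66 to 1.86, exact p = 0.310), -1.64 for *Tnfa* (-3.51 to 3.59, exact p = 0.534) and -0.81 for *Il6* (-3.50 to 0.65, exact p = 0.445). No cytokine was called, and 0% of the 54 genes were. At 6 weeks the shift was -0.62 for *Il1b* (-4.27 to 2.32, exact p = 0.535), 0.89 for *Tnfa* (-1.47 to 2.17, exact p = 0.535) and 0.78 for *Il6* (-1.58 to 2.67, exact p = 0.456). No cytokine was called here either, where 18.5% of the genes were called, all 10 higher in P+eMSC, and the median shift of all genes was 1.15. The shifts of all 3 cytokines were below that median. In P at 6 weeks mouse 52 again counted for the genes in which it had a Ct, and for none of the cytokines. Against the panel median, *Tnfa* and *Il6* at 6 weeks had the opposite sign (-0.44 and -0.68). P+eMSC against sham shares its sham mice with P against sham, and its P+eMSC mice with this comparison, so that these sets of values do not repeat one another independently.

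**Figure D2:**
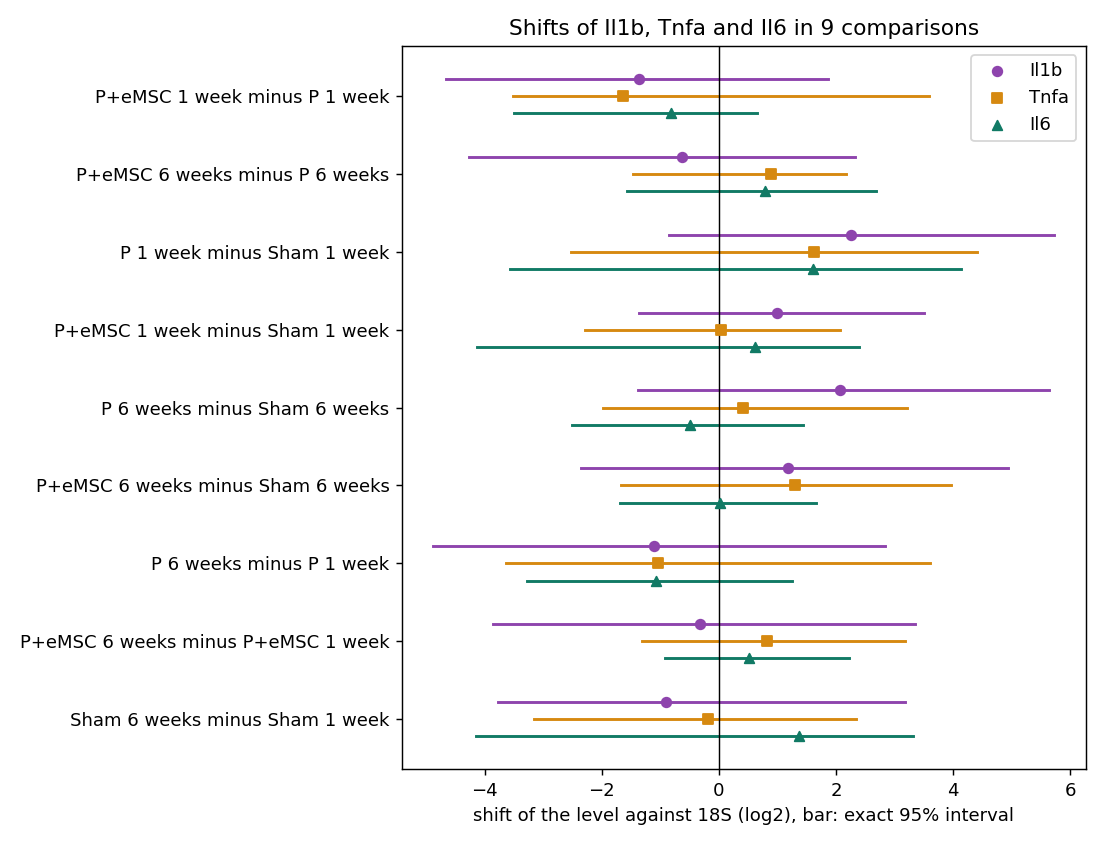
Shift of the level (x axis, log2, against 18S) of *Il1b*, *Tnfa* and *Il6* in each of the 9 comparisons (y axis), with its exact 95% interval as a bar. All 27 intervals span 0, and their widths run from 3.13 to 7.71.

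The third question was the time course. In sham mice the shift from 1 to 6 weeks was -0.90 for *Il1b* (-3.77 to 3.18, exact p = 0.731), -0.19 for *Tnfa* (-3.16 to 2.34, exact p = 0.836) and 1.37 for *Il6* (-4.15 to 3.32, exact p = 0.445). None was called, while 3.7% of the 54 genes were, both of these higher at 6 weeks. *Il6* in sham mice had an SD of 3.37 (n = 7) at 1 week and 0.77 (n = 6) at 6 weeks, a difference that was not tested. In P the estimates of all 3 cytokines were lower at 6 weeks, with shifts of -1.10 for *Il1b* (-4.88 to 2.83, exact p = 0.534), -1.04 for *Tnfa* (-3.63 to 3.60, exact p = 0.836) and -1.08 for *Il6* (-3.28 to 1.25, exact p = 0.295). In P+eMSC they were -0.32 for *Il1b* (-3.85 to 3.35, exact p = 0.731), 0.82 for *Tnfa* (-1.31 to 3.18, exact p = 0.383) and 0.52 for *Il6* (-0.91 to 2.22, exact p = 0.535). Neither treatment had a called cytokine, and 0% of the genes were called in P and 0% in P+eMSC.

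Counting mouse 2356 at 1 week made the P time course steeper, with a shift of -1.66 for *Il1b*, -2.32 for *Tnfa* and -1.66 for *Il6*, and exact p-values of 0.181, 0.445 and 0.101. In the same setting the 1 week *Il1b* shift of P against sham was 2.83 (exact p = 0.0973). Interaction terms in limma tested whether a difference between treatments was the same at both weeks. The 9 interaction terms of the cytokines lay between -1.37 and 1.74, each less than 2 of its standard errors (1.45 to 2.03) from 0, with adjusted p-values between 0.504 and 0.999. No interaction was called among the 54 genes either, with 0% for P minus sham, 0% for P+eMSC minus sham and 0% for P+eMSC minus P, and none had an unadjusted p below 0.05.

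Over the 27 comparisons the shifts lay between -1.64 and 2.26, 16 above 0 and 11 below, and each was smaller than the larger SD of its 2 groups. The smallest exact p was 0.138, no p was below 0.05, and an exact permutation test of the mean gave no p below 0.142. The intervals reached from -4.88 to 5.73, so that differences of several PCR cycles in either direction could not be told from 0 with 6 or 7 mice per group.

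**Figure D3:**
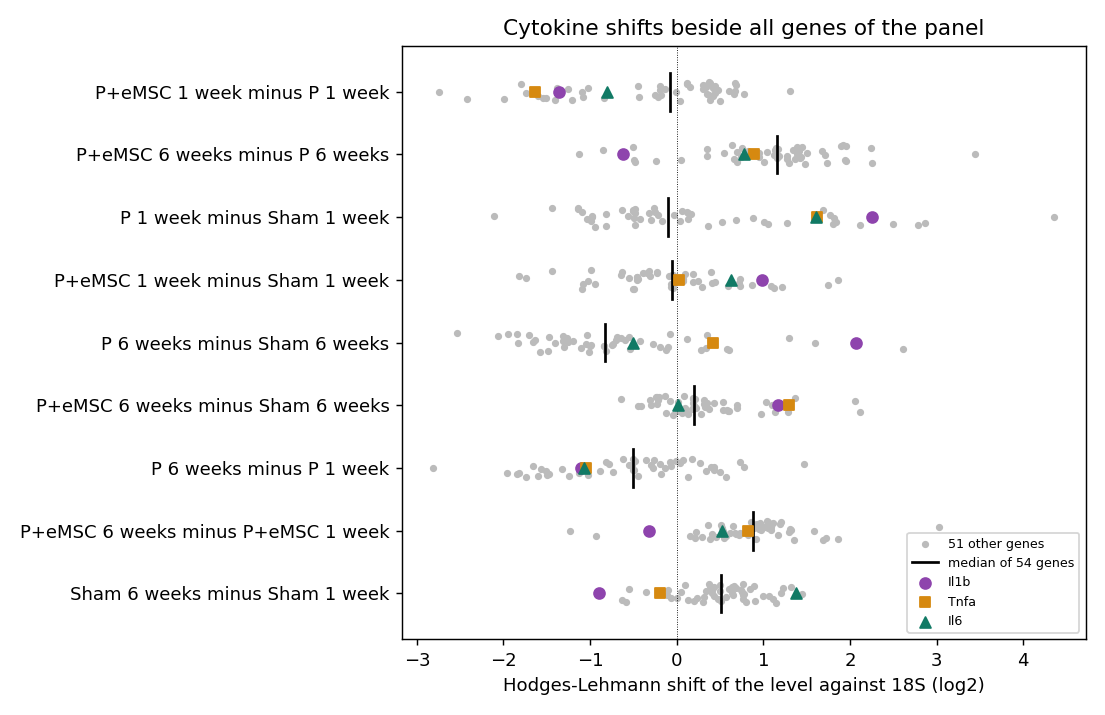
Shift of each of the 54 genes (x axis, log2, level against 18S) in each of the 9 comparisons (y axis); grey points are the 51 other genes, the black bar the median of the 54. The 3 cytokines lie above that median in P against sham at 1 and at 6 weeks, and below it in P+eMSC against P at both weeks. P at 6 weeks includes mouse 52 for the genes in which it had a Ct, and for none of the cytokines.

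While the groups overlapped, the levels of the 3 cytokines against 18S were correlated from mouse to mouse. The permutation p-values given here test against no correlation. They do not test against the median r of 0.67 over all 1431 gene pairs. With the group means subtracted, the levels of *Il1b* and *Tnfa* correlated with r = 0.86 over 39 mice (Spearman's rho = 0.84), with p = 1e-05 for each, the smallest that 100000 shuffles within groups can give, and an adjusted p of 0.00021 over the 21 relations computed. *Il1b* and *Il6* had r = 0.67 (n = 39 mice, rho = 0.55, permutation p = 2e-05 and 0.00069, adjusted 0.00021 and 0.0072). *Tnfa* and *Il6* had r = 0.56 (n = 40 mice, rho = 0.54, permutation p = 9e-05 and 0.0011, adjusted 0.00063 and 0.0079). Leaving out the 2 mice farthest from the median on the x axis gave r = 0.84, 0.56 and 0.60. Whether the coefficients differ from one another was not tested.

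The same 18S value enters all levels of a mouse, and its Ct had an SD between 0.11 and 0.45 within groups. The median r over the 1431 pairs of the 54 genes was 0.67, and the part of 18S in it was not tested. Of the 3 coefficients, that of *Il1b* and *Tnfa* was above this median, that of *Il1b* and *Il6* close to it and that of *Tnfa* and *Il6* below it. Against the panel median of each mouse the median r of all pairs fell to 0.10. On this scale *Il1b* and *Tnfa* had r = 0.76 (rho = 0.70, permutation p = 1e-05 for each), *Il1b* and *Il6* r = 0.46 (rho = 0.30, permutation p = 0.0032 and 0.073), and *Tnfa* and *Il6* r = 0.26 (rho = 0.28, permutation p = 0.09 and 0.084). Without mice 2269 and 2317, the 2 farthest out, r of *Il1b* and *Il6* on this scale was 0.29. Within the 20 or 21 mice numbered below 1000, r against 18S was 0.72, 0.46 and 0.34 for the 3 pairs in the same order (permutation p = 0.014, 0.049 and 0.16). In the 19 mice numbered above 2000 it was 0.87, 0.76 and 0.69 (permutation p = 0.00015, 0.0072 and 0.0077).

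**Figure D4:**
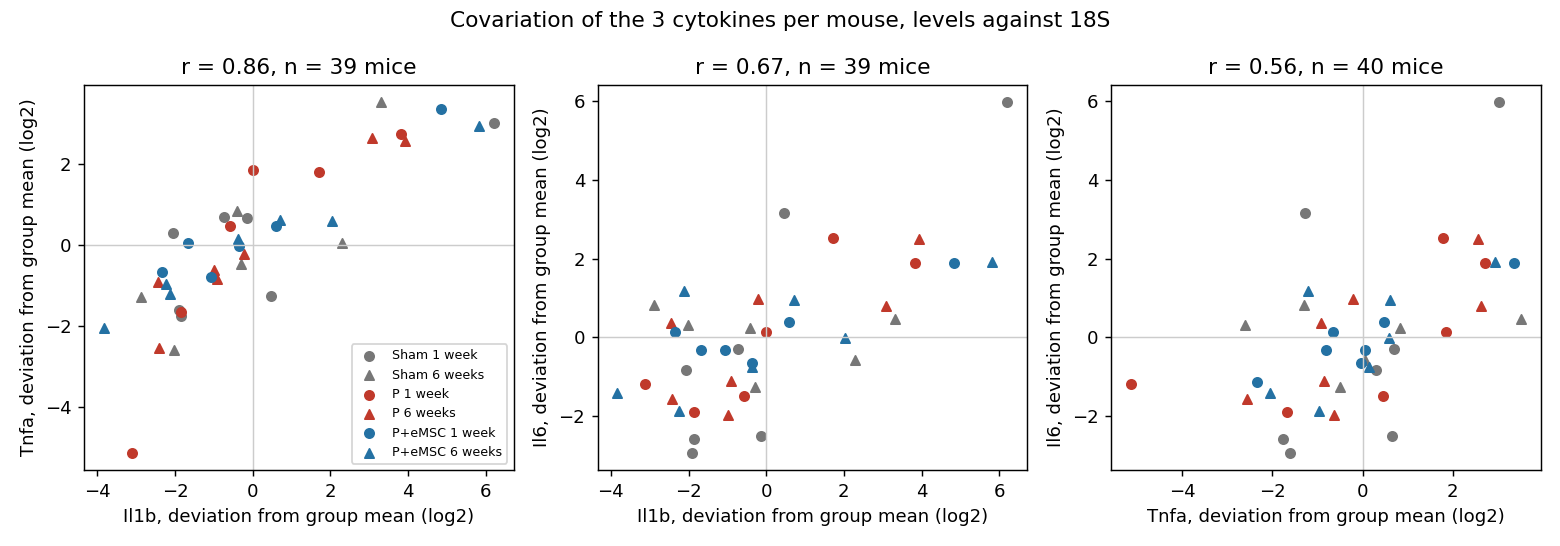
Deviation of each mouse from its group mean (both axes, log2, level against 18S) for *Il1b* and *Tnfa*, *Il1b* and *Il6*, and *Tnfa* and *Il6*, coloured by treatment, with circles for 1 week and triangles for 6 weeks. Points follow one line most closely for *Il1b* and *Tnfa* (r = 0.86) and scatter more for *Il6* (r = 0.67 and 0.56).

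The difference between 2 cytokines in a mouse does not contain 18S. The difference of *Il1b* and *Tnfa* had an SD within groups of 1.45, against 2.73 for *Il1b* and 2.0 for *Tnfa* alone over the same 39 mice. For *Il1b* and *Il6* the difference had an SD of 2.01, above that of *Il6* alone (1.91), and for *Tnfa* and *Il6* of 1.83, close to that of *Tnfa* (2.02) and of *Il6* (1.89) alone in those 40 mice.

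Group by group, *Il1b* and *Tnfa* correlated with an r between 0.78 and 0.99 in each of the 6 groups, and 4 of the 6 passed an adjusted p below 0.05 by the exact permutation test, although by Spearman's rho only P+eMSC at 6 weeks did. Against the panel median r lay between 0.43 and 0.95, and 1 of the 6 groups passed. Without the 2 mice farthest out in each group, r against the panel median lay between -0.26, in sham at 1 week, and 0.89, in P at 6 weeks. Against 18S it then lay between 0.46 and 0.94. For *Il1b* and *Il6* r was above 0 in 5 groups, up to 0.87, and passed in 1. Sham mice at 6 weeks were the exception, with r = -0.27 (n = 6, exact permutation p = 0.621). *Tnfa* and *Il6* had r between 0.07, again in sham at 6 weeks (n = 6, exact permutation p = 0.888), and 0.93, in P+eMSC at 1 week, the only group to pass. Against the panel median no group passed for *Il1b* and *Il6* or for *Tnfa* and *Il6*, and the smallest exact permutation p was 0.0506 and 0.0585. The r of 0.93 rested on mice 10 and 78, without which r was 0.25 in the other 5 mice.

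**Figure D5:**
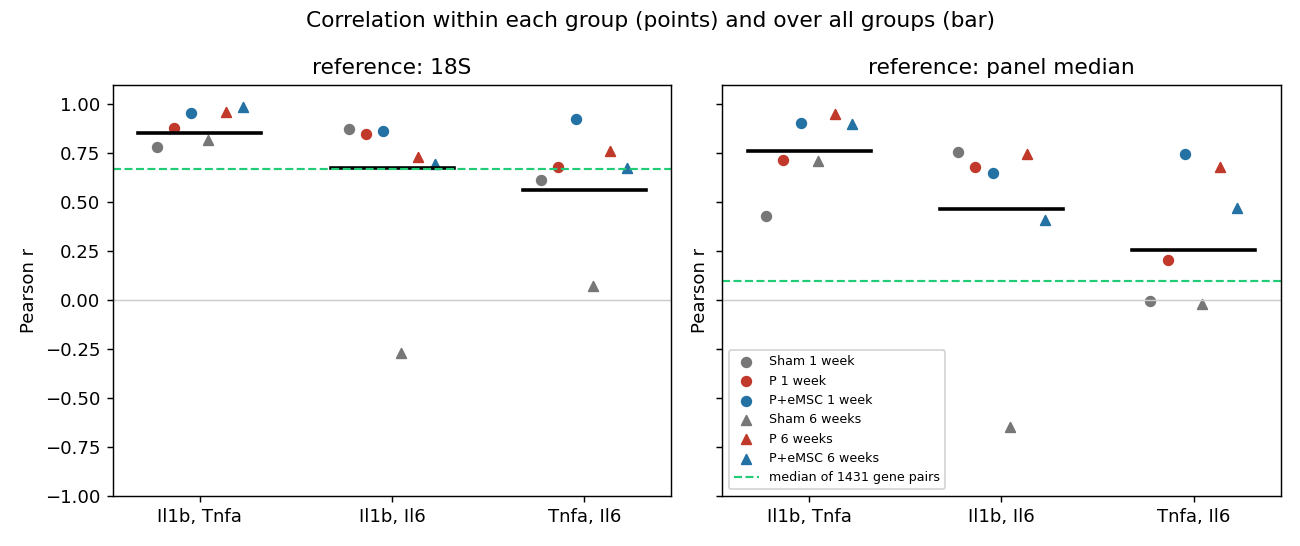
Pearson r of each cytokine pair (x axis) within each of the 6 groups (points) and over all mice with group means subtracted (black bar), with levels against 18S (left) and against the panel median (right). The dashed line is the median of 1431 gene pairs, 0.67 on the left and 0.10 on the right. Sham at 6 weeks is the lowest point for *Il1b* and *Il6* in both panels.

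The same mouse was often the highest of its group. Of the 6 groups, 5 had the same mouse at the top for *Il1b* and *Tnfa*, 4 for *Il1b* and *Il6*, 3 for *Tnfa* and *Il6*, and 3 for all cytokines together. Over the 1431 pairs of the 54 genes the median was 3 groups, and 13.8% of the pairs shared the top mouse in at least 5 groups, 33.1% in at least 4 and 52.6% in at least 3. In sham at 1 week mouse 2269 led with -8.83 for *Il1b*, -10.58 for *Tnfa* and -10.00 for *Il6*. In P+eMSC at 1 week mouse 10 led with -9.36, -9.98 and -14.41 in the same order. In P+eMSC at 6 weeks mouse 2317 led with -8.75, -9.69 and -13.77. Of these 3 mice, 2269 was a sham mouse, while mice 10 and 2317 were both P+eMSC mice. In P at 1 week mouse 2308 led in *Il1b* (-9.10) and *Tnfa* (-9.88) and mouse 2396 in *Il6* (-12.68). In P at 6 weeks mouse 2356 led in *Il1b* (-9.84) and *Il6* (-13.81), while mouse 2307 led in *Tnfa* (-10.58). In sham at 6 weeks mouse 408 led in *Il1b* (-12.60) and *Tnfa* (-10.33), whereas the top *Il6* mouse, 2277, had the lowest *Il1b* of all mice.

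The genes whose levels against 18S were most like each cytokine, by Spearman's rho of the group-centred levels, were for *Il1b* the chemokine *Ccl5* (rho = 0.87), the metalloproteinase inhibitor *Timp1* (0.86) and the hyaluronan receptor *Cd44* (0.85), each over 39 mice. *Tnfa* was the 4th for *Il1b*. For *Tnfa* they were *Cd44* (0.93), the interferon-inducible chemokine *Cxcl10* (0.88) and the growth factor *Tgfb1* (0.86), and for *Il6* the chemokine receptor *Ccr1* (0.76), the neutrophil chemokine *Cxcl1* (0.75) and the collagen *Col1a1* (0.74), over 40 mice. *Il6* ranked only 37th of the 53 other genes for *Il1b* and 40th for *Tnfa*. Against the panel median the first gene was *Ccl4* for *Il1b* (rho = 0.78, 37 mice), *Cd44* for *Tnfa* (0.81) and *Cxcl2* for *Il6* (0.52).

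Of 14 genes known to be induced through NF-κB by IL-1 and TNF, mostly chemokines and adhesion molecules, 13 were in the panel. In each of the 9 comparisons 0 of these 13 were called, while the share called of all 54 genes ran from 0% in 5 of the comparisons to 18.5% in P+eMSC against P and 25.9% in P against sham at 6 weeks. In P against sham at 1 week 9 of the 13 shifts were above 0, and 26 of all 54, with a median of 1.05 against -0.10 for all 54 genes, and the smallest exact p was that of *Cxcl1* (1.82, exact p = 0.181). In P+eMSC against P at 1 week 2 of 13 were above 0, and 26 of all 54, with a median of -1.38 against -0.07, again with *Cxcl1* first (-1.74, exact p = 0.101). In P against sham at 6 weeks 6 of 13 were above 0, and 11 of all 54, with a median of -0.08 against -0.83, and the chemokine *Ccl4* had the smallest exact p (2.61, exact p = 0.0931). In P+eMSC against P at 6 weeks 9 of 13 were above 0, and 47 of all 54 (median 0.35, against 1.15), with *Ccl5* first (1.95, exact p = 0.232). In P+eMSC against sham 8 of 13 at 1 week and 9 of 13 at 6 weeks were above 0, and 24 and 40 of all 54. The medians were 0.09 at 1 week (-0.05 for all genes), with the monocyte chemokine *Ccl7* first (1.09, exact p = 0.259), and 0.43 at 6 weeks (0.20 for all genes), with *Ccl4* first (2.12, exact p = 0.0649). From 1 to 6 weeks 3 of 13 shifts were above 0 in P, beside 14 of all 54, with *Cxcl1* first (-1.57, exact p = 0.0734). In P+eMSC it was 12 of 13 beside 51 of 54, with the gelatinase *Mmp9* first (3.03, exact p = 0.0728). In sham it was 11 of 13 beside 44 of 54, with *Cxcl10* first (1.45, exact p = 0.234).

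Of the 5 genes that counteract or follow the acute response, the inhibitory cytokine *Il10*, the receptor chain *Il4ra*, the arginase *Arg1*, the mannose receptor *Mrc1* and *Tgfb1*, 0 were called in any comparison, where between 0% and 25.9% of all 54 genes were. In P against sham at 6 weeks all 5 were below 0 (median -0.70), as were 43 of all 54 genes (median -0.83), and *Il4ra* had the smallest exact p (-0.70, exact p = 0.0593). In P+eMSC against P at 6 weeks all 5 were above 0 (median 1.15), as were 47 of all 54 genes (median 1.15), with *Mrc1* first (1.35, exact p = 0.121). At 1 week the median was 0.13 in P against sham, against -0.10 for all genes, where *Il10* came first (1.77, exact p = 0.445), and -0.19 in P+eMSC against P, against -0.07 for all genes, where *Il10* again came first (-1.25, exact p = 0.310).

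Markers of the cells in the tissue were set beside the cytokines. Of 6 myeloid markers the panel held 3 (*Ccr1*, *Ccr2* and *Mrc1*), all with a Ct in every mouse but 1 of P at 6 weeks, where 23 of 24 values had one. Their mean level per mouse ranged from -13.08 to -6.66 in sham, from -12.61 to -7.89 in P and from -14.06 to -8.42 in P+eMSC at 1 week. At 6 weeks it ranged from -11.86 to -8.46 in sham, from -18.50 to -8.02 in P and from -13.19 to -7.27 in P+eMSC. The P range at 6 weeks includes mouse 52, which had no Ct for 31 genes and is absent from all cytokine ranges. Its median level against 18S over the genes of the panel median was -16.94. In the 7 other mice of that group this median was -10.52 or higher. The myeloid range of P without mouse 52 was not determined. *Ccr1*, the chemokine receptor of monocytes and neutrophils, correlated with r = 0.81 with *Il1b*, 0.75 with *Tnfa* and 0.76 with *Il6*, and against the panel median with r = 0.69, 0.50 and 0.54. *Ccr2*, the receptor of inflammatory monocytes, had r = 0.76, 0.75 and 0.65 against 18S and 0.60, 0.44 and 0.24 against the panel median. *Mrc1*, the mannose receptor of macrophages, had r = 0.57, 0.57 and 0.68 against 18S, and 0.12, -0.16 and 0.29 against the panel median. The collagen *Col1a1*, 1 of 4 fibroblast markers, all in the panel, had r = 0.78, 0.78 and 0.68 against 18S and 0.63, 0.54 and 0.33 against the panel median. It was also among the genes most like *Il6* named above, and the correlations of the other fibroblast markers are not given here. The epithelial marker *Cdh1* had r = 0.45, 0.49 and 0.27 against 18S and 0.19, 0.15 and -0.17 against the panel median. The medians over all gene pairs were 0.67 and 0.10. *Ccr2*, *Mrc1* and *Col1a1* were themselves among the genes of the panel median, while *Ccr1* and *Cdh1* were not. Of the 3 myeloid, 4 fibroblast and 1 epithelial markers, 0 were called in any of the 9 comparisons, beside the 0% to 25.9% of all genes. The part of a varying cell content in the levels of the cytokines was not tested.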

How the data were processed

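RNA (100 ng) was reverse transcribed and, per the labels and methods, preamplified for 14 cycles and read on a Fluidigm array. The authors took Ct values from the Fluidigm software (V4.1.1) and deposited them without normalization, as a score per gene and mouse with 999 for no call. A second deposited table holds fold change ratios to sham controls, which were used only to find the calibrator of each mouse. Precision rests on the number of mice, since a Ct carries no read depth.

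Levels were 18S Ct minus gene Ct. Groups came from the labels. All 54 genes were tested two-sided with exact Mann-Whitney U statistics and Hodges-Lehmann shifts (at least 4 values per group), adjusted by Benjamini-Hochberg over the 54 genes. Interactions used limma 3.58.1 (R 4.3.3), leaving out values without a Ct. Correlations used levels with group means subtracted, with 100000 shuffles within groups (20000 within number series, an alternative added after the data were seen), and exact pairings within a group. Scripts ran in Python 3.11.15 (scipy 1.17.1, numpy 2.4.6, pandas 2.3.3, with figures from matplotlib 3.10.9) and were tested on simulated data. The cytokines and gene lists were chosen with earlier results of these data known. Besides the cytokines, the genes named were the 3 most correlated with each (at least 30 mice) and, in each list and comparison, the one of smallest p. The first gene of each cytokine against the panel median, the marker correlations, and mice named for their levels were chosen after their values were seen. Alternatives were another reference, undetected values set 1 cycle beyond the highest Ct, other thresholds and tests, the number series, and leaving out mice. *Gapdh* as reference and a second *Tnf* assay were not used here.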

Additional observations from a re-analysis of the deposited data

Results flagged for a closer look

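Of the 18 sets of values of a cytokine in a group, 1 held a mouse far from the others. In sham mice at 1 week, mouse 2269 had an *Il1b* level of -8.83. Its gap to the next mouse was 5.74, which is 0.69 of the range of the group (8.28) and above the critical value for 7 samples at the 95% level. Chance alone flags about 1 in 20 groups. The mouse was also the highest of its group for *Tnfa* and *Il6*, its 18S Ct was 6.56, and its *Il1b* level against the panel median was -2.52.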

How the results depend on the processing

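Most comparisons kept their direction, and in most settings no cytokine was called. Against the panel median *Il1b* in P minus sham was called at 1 week (2.31) and at 6 weeks (3.41), and against 18S without mouse 2269 at 1 week (3.09), each without passing an adjusted p below 0.05. The 6 week call included mouse 2356 and was not repeated without it. Directions turned against the panel median for *Il6* in P+eMSC minus P at 6 weeks (-0.68), P minus sham at 6 weeks (0.49), P+eMSC minus sham at 6 weeks (-0.19) and from 1 to 6 weeks in P+eMSC (-0.53), and for *Tnfa* in P+eMSC minus P at 6 weeks (-0.44) and from 1 to 6 weeks in P+eMSC (-0.31). Within the animal number series they turned for *Il6* in P minus sham at 1 week (-0.081) and P+eMSC minus sham at 6 weeks (-0.42), for *Tnfa* in P+eMSC minus sham at 1 week (-0.21), P minus sham at 6 weeks (-0.31) and the sham time course (0.18), and for *Il1b* in the sham time course (0.75). The mean difference of *Il6* in P+eMSC minus sham at 1 week was -0.33, and with undetected values set beyond the highest Ct *Il1b* in P+eMSC moved by 0.32 from 1 to 6 weeks. The interaction turned for *Il1b* (-0.25) in P+eMSC minus P and for *Tnfa* (0.45) in P minus sham against the panel median, and for *Il1b* in P minus sham (-1.06) with mouse 2356 at 1 week. The correlation of *Tnfa* and *Il6* did not pass against the panel median (r = 0.26) or in mice numbered below 1000 (r = 0.34). The cause of these changes was not tested. The 3 correlations over all mice against 18S kept their calls without mouse 52 and without the 2 mice farthest out. Without such mice *Tnfa* and *Il6* in P+eMSC at 1 week had r = 0.25, and *Il1b* and *Il6* over all mice against the panel median r = 0.29.

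Leaving out 1 mouse at a time turned the sign in 21 of 357 cases, in 7 of the 27 comparisons, and in 22 of the 27 it turned the sign or moved the shift by over 1.5 times for at least 1 mouse. The shifts then ran from 2.11 to 3.35 for *Il1b* in P minus sham at 1 week, from -1.98 to -0.38 for *Il1b* in P+eMSC minus P at 6 weeks, from -1.12 to -0.27 for *Il6* in P+eMSC minus P at 1 week, from 0.062 to 1.68 for *Il1b* in P+eMSC minus sham at 6 weeks, from -0.34 to 0.66 for *Tnfa* in P+eMSC minus sham at 1 week, from -0.053 to 0.99 for *Tnfa* in P minus sham at 6 weeks, and from -0.24 to 0.52 for *Il6* in P+eMSC minus sham at 6 weeks. Over time they ran from -1.92 to 0.12 for *Tnfa* in P, from -1.13 to 0.087 for *Il1b* in P+eMSC, and in sham from -1.03 to 0.58 for *Il1b* and from -0.89 to 0.21 for *Tnfa*. No paired analysis was possible because each mouse received 1 treatment and no animal number occurs in 2 groups.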
